A study of Mus musculus with 6 samples.

Results

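The immediate early genes on the array were Fos, Fosb, Jun, Junb, Egr1, Egr2, Btg2, Zfp36, Ier2 and Atf3, 10 genes taken by name as a sign of handling stress or of a growth factor response. Each gene was represented by 1 probe, so the set is 10 of the 21766 probes on the array and 10 of the 15063 genes with a named probe. The data compare the cortex of mouse embryos that lack the active copy of Mest (Peg1) with wild-type cortex. The 6 mutant cortices (mutants 1, 3, 4, 5, 6 and 7) were taken at E12.5 and carried, from the father, a LacZ-targeted Mest allele without exons 3 to 8, with a wild-type allele from the mother. Because Mest is imprinted and only the paternal copy is expressed, these embryos count as mutants. The 3 wild-type cortices (numbers 2, 8 and 9) were of the same stage. The allele is inherited through the germ line, no strain is named in the sources used here, and each RNA came from a single cortex. Each of the 6 two-colour arrays compared 1 mutant with 1 wild type: mutants 3, 5 and 6 were labelled with Cy5, and mutants 1, 4 and 7 with Cy3. Each wild type was taken to serve on 2 arrays, once per dye, although the array of mutant 3 is labelled with a wild type 1 that the design does not list, and it was read as wild type 2.

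Immediate early genes are transcribed within minutes of a stimulus without the need for new protein. Growth factors act on them through the Ras and ERK kinases, serum response factor and its Elk partners, while calcium, cAMP and stress signals act through CREB, ATF and AP-1 sites. Fos, Fosb, Jun, Junb and Atf3 encode leucine zipper proteins that pair to form AP-1 and related dimers, Egr1 and Egr2 encode zinc finger transcription factors, and Btg2 and Zfp36 encode proteins that promote the shortening and decay of mRNA. In brain they are widely used as a sign of recent neuronal activity, and dissection or delay before RNA extraction can raise them. In the embryonic cortex Btg2 is also a known marker of progenitors that are about to produce neurons.

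The sequences just before the transcription starts are where many of these signals act. RefSeq promoter windows (GRCm38.p6) matched 8 of the 10 genes, with 12 windows in all, of which 5 are alternative starts of Egr2. Egr1 and Ier2 are named only. The 150 bases before the start are printed 5′ to 3′ on the gene's own strand for Fosb, the gene with the largest fitted difference, for its relative Fos, and for Egr2 and Zfp36, the members with a serum response element of the CArG type in the window. Capitals mark the motifs searched, on both strands.
Fosb, chr7:19310046-19310195, minus strand: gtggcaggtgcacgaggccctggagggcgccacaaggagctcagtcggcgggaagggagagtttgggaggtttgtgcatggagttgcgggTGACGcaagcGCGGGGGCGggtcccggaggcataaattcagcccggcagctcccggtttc
Fos, chr12:85473740-85473889, plus strand: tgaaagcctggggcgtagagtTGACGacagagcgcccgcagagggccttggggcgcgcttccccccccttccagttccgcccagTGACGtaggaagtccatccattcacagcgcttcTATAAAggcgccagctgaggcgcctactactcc
Egr2, chr10:67537719-67537868, plus strand: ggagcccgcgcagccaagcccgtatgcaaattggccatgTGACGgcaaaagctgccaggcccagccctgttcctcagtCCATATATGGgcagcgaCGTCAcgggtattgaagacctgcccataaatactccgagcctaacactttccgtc
Zfp36, chr7:28379229-28379378, minus strand: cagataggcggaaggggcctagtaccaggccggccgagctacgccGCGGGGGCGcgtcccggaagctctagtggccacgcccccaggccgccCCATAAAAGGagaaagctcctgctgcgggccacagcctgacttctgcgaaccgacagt

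The CArG box lay at positions -72 to -63 of the printed Egr2 start and -58 to -49 of Zfp36, counted from the start at 0, and 1.63% of all 32851 windows of the same length held one. It was found in 5 of the 12 member windows, 4 of them starts of Egr2 and 1 of Zfp36, but 3 of the Egr2 windows share the same box, so these are 3 distinct boxes. The short cAMP response element TGACG was found in 8 of the 12 member windows, some of them overlapping Egr2 windows, against 20.8% of all windows. These belong to 6 genes (Atf3, Btg2, Egr2, Fos, Fosb and Junb). The full element TGACGTCA, which contains the short one on both strands, was found in Btg2 at -166 to -159, outside the stretch printed for the others, and in 1.79% of all windows. An Egr site of the form GCGGGGGCG was found in 2 of the 12 member windows, those of Fosb and Zfp36 (2.91% of all windows). The form GCGTGGGCG was found in no member (0.612%) and the AP-1 site TGACTCA in no member (5.2%). TATAAA was found in 2 of the 12, those of Fos and Junb (13.6%). These are letter matches in windows of 300 bases and say nothing about binding in these embryos. The windows run from 250 bases before the start to 50 after, and sites farther away were not searched. A member without a match, such as Fos for the CArG box, may therefore hold one elsewhere.

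Expression is given throughout as the log2 of mutant over wild type, after each array's median over all probes was set to 0. The deposited ratios hold no signal level, so neither the abundance of a transcript nor the presence of cortical markers could be checked, and in whole cortex fewer expressing cells and less RNA per cell cannot be told apart. An array held values for 75.4% to 89.9% of its probes, and 62.2% of probes were measured on all 6. The targeted gene Mest had -1.36, -1.78 and -1.39 in mutants 3, 5 and 6 and -1.50, -2.07 and -1.44 in mutants 1, 4 and 7. The direction of the deposited ratio rests on this gene and on the dye labels. Ratios of arrays with opposite dyes correlated between -0.415 and -0.124 over probes, and those of arrays with the same dye between 0.172 and 0.348.

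In Mest mutant cortex the immediate early genes lay on both sides of wild type. Their mean was 0.059, -0.029 and -0.23 in mutants 3, 5 and 6 and -0.22, -0.24 and 0.13 in mutants 1, 4 and 7, or -0.089 ± 0.16 over the arrays (SD, n = 6). Over the 7 members with values on all 6 arrays the mean was 0.070 ± 0.14, of the other sign, so the sign depends on which members are averaged. Of the 55 member values present, 31 lay above 0 and 24 below. Of 60 possible values 5 were missing, 2 each of Fos and Egr1 and 1 of Fosb, a share of 8.33% against 15.9% over all probes.

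None of the 9 members that entered the test passed an adjusted p of 0.05, where 0% of the 17476 probes tested did (limma, adjusted p from 0.90 to 0.99). The targeted gene Mest, at rank 1 of all probes, did not pass either (limma, unadjusted p = 3.439e-05, adjusted p = 0.601). The lack of calls is therefore no result about the members in particular. Fos could not be fitted, having a single value with the mutant in Cy3. At an unadjusted p under 0.05 there was 1 member, Fosb, against 3.93% of all probes. It was lower in mutants, as 2.33% of all probes were at that threshold, and no member was higher, against 1.6%. Every value lay on the same side of 0 for 3 of the 9 (Fosb, Egr2 and Atf3), against 5.57% of all probes. Fitted ratios lay above 0 for 4 members and below 0 for 5, against 51.3% above 0 over all probes. The median fitted ratio was -0.025, against 0.0069 over all probes, and the median size was 0.22 against 0.14. The 95% confidence intervals of 7 of the 9 members lay within a 2-fold change in either direction, as those of 70.9% of all probes did. The exceptions were Fosb and Egr1, both with missing values.

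**Figure D1:**
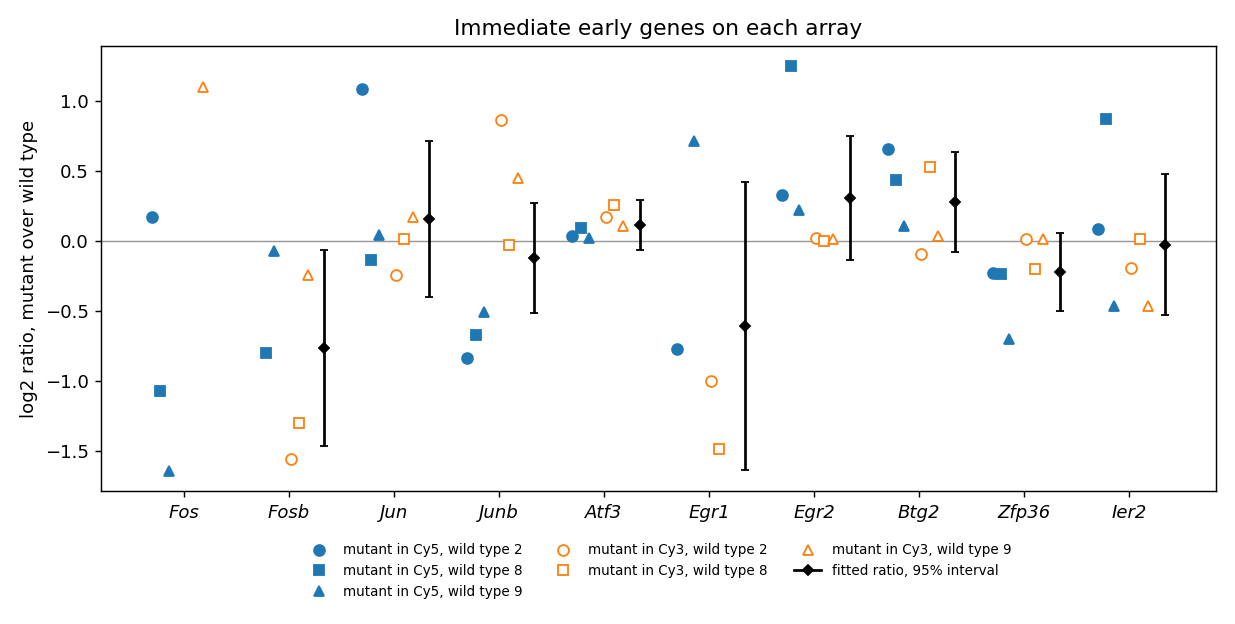
Log2 ratio of mutant over wild type (y axis) for each immediate early gene (x axis) on each array, mutants in Cy5 being filled and those in Cy3 open symbols, the shape giving the wild type (array of mutant 3 read as wild type 2), and the fitted ratio with its 95% interval as a diamond. Only Fosb has an interval that does not reach 0, and its 5 values range from -1.56 to -0.069.

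The Fos proteins are the partners that must pair with a Jun protein to bind DNA. Fosb had -0.80 and -0.069 in mutants 5 and 6 and -1.56, -1.30 and -0.24 in mutants 1, 4 and 7, with no value for mutant 3. It thus lay below 0 on all 5 arrays with a value, as 3.12% of all probes did, and the orientations overlapped. The fit gave a log2 ratio of -0.77 (standard error 0.26), a level 0.588 times that of wild type with an interval from 0.361 to 0.957. Over all probes this did not pass (limma, unadjusted p = 0.0385, adjusted p = 0.90, rank 465 of 17476). The unadjusted call ended without mutant 1, 4, 5 or 6, where p was 0.105, 0.0909, 0.140 and 0.0734, while the ratio stayed between -0.92 and -0.60. With the mutant in Cy5 only, the ratio was -0.43 on 2 arrays. On its arrays Fosb stood at percentiles 15.1 and 40.2 of all probes in mutants 5 and 6, and at 4.28, 5.46 and 30.6 in mutants 1, 4 and 7. Both arrays of wild type 8 gave strongly negative values, while both arrays of wild type 9 lay nearer to 0.

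Fos, the founding member of the class, had 0.17, -1.07 and -1.64 in mutants 3, 5 and 6 and 1.10 in mutant 7. The value of mutant 3 lay near the middle of its array, and the other 3 lay farther out, to either side of 0. Mutants 6 and 7, the lowest and the highest, were set against the same wild type 9 and gave values of opposite sign, and no test was made. Fos and Fosb had opposite signs in mutant 7, where Fosb was at -0.24.

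Jun and Junb encode the partners of Fos in AP-1, and Junb is known to be the weaker activator of the pair. Jun had 1.09, -0.14 and 0.043 in mutants 3, 5 and 6 and -0.25, 0.016 and 0.17 in mutants 1, 4 and 7. Mutant 3 stood apart from the other 5, which lay between -0.25 and 0.17. The fitted ratio was 0.16 (standard error 0.22, limma, adjusted p = 0.91), and without mutant 3 it was -0.047. Junb had -0.84, -0.67 and -0.50 in mutants 3, 5 and 6, against 0.87, -0.025 and 0.45 in mutants 1, 4 and 7. All values with the mutant in Cy5 lay below all those with the mutant in Cy3. The fitted genotype ratio, which averages over the dyes, was -0.12 with a standard error of 0.16 (limma, adjusted p = 0.90). With Gapdh control spots as the centre it turned to 0.14, below the median of all probes, which stood at 0.265 on that scale.

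Atf3 encodes a stress-induced factor that pairs with Jun proteins and, as a homodimer, represses. It had 0.035, 0.097 and 0.024 in mutants 3, 5 and 6 and 0.17, 0.26 and 0.11 in mutants 1, 4 and 7. It was above 0 on all 6 arrays, as 2.44% of all probes were with every value they had. The size was small: the fitted ratio was 0.11 with a standard error of 0.071, a level 1.08 times that of wild type with an interval from 0.957 to 1.23 (limma, adjusted p = 0.90). Of the 9 members tested, Atf3 varied least from array to array.

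Egr1 and Egr2 bind the same GC-rich site, and Egr2 is best known for patterning the hindbrain and for myelination by Schwann cells. Egr1 had -0.77 and 0.71 in mutants 3 and 6 and -1.004 and -1.49 in mutants 1 and 4, with no value for mutants 5 and 7. It lay below 0 on 3 of the 4 arrays. The fitted ratio was -0.61 (standard error 0.35), with an interval of the level from 0.320 to 1.34 times wild type (limma, adjusted p = 0.90). Without mutant 6 it was -1.04, and over the arrays left out in turn it ranged from -1.04 to -0.27. With the mutant in Cy3 only it was -1.24 and in Cy5 only -0.029, each on 2 arrays. In mutant 6 Egr1 was the highest of the 10 members and Fos, at -1.64, the lowest.

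Egr2 had 0.33, 1.25 and 0.22 in mutants 3, 5 and 6, against 0.019, 0.002 and 0.012 in mutants 1, 4 and 7. It lay above 0 on all 6 arrays, but the 3 values with the mutant in Cy3 were at most 0.019 and the orientations did not overlap. The fitted ratio was 0.31 with a standard error of 0.18 (limma, adjusted p = 0.90), and without mutant 5 it was 0.14. The unadjusted p was 0.139, and 0.0391 with arrays centred on Gapdh control spots (limma), a scale on which the median of all probes stood at 0.265. Egr2 and Egr1 had opposite fitted signs.

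Btg2, which slows the cell cycle and recruits the deadenylase complex to mRNA, had 0.66, 0.44 and 0.11 in mutants 3, 5 and 6 and -0.090, 0.53 and 0.038 in mutants 1, 4 and 7. It was above 0 on 5 of 6 arrays, all except that of mutant 1. The fitted ratio was 0.28 with a standard error of 0.14, or 1.21 times wild type with an interval from 0.949 to 1.56 (limma, unadjusted p = 0.100, adjusted p = 0.90). It kept its sign under all 16 other settings tried and with each array left out, with ratios from 0.16 to 0.54. Several of these settings, such as those without the block or the dye term, cannot move the ratio of a probe with all 6 values. The highest ratio came with Gapdh centring, where the median of all probes stood at 0.265.

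Zfp36 encodes tristetraprolin, which binds AU-rich elements and speeds the decay of cytokine and early response mRNAs, its own included. It had -0.23, -0.24 and -0.70 in mutants 3, 5 and 6, against 0.018, -0.20 and 0.012 in mutants 1, 4 and 7. The lowest 4 values were below 0 and the remaining 2 were at most 0.018, with mutant 6 apart from the rest. The fitted ratio was -0.22 with a standard error of 0.11 (limma, unadjusted p = 0.0991, adjusted p = 0.90). Its sign depended on the centring: with arrays centred on Gapdh control spots it was 0.039. That still lay below the median of all probes, which stood at 0.265 on that scale.

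Ier2, a small nuclear protein of less well known function, had 0.083, 0.87 and -0.47 in mutants 3, 5 and 6 and -0.19, 0.014 and -0.46 in mutants 1, 4 and 7. With 3 values on either side of 0, its fitted ratio was -0.025 with a standard error of 0.20, an interval from 0.692 to 1.40 times wild type (limma, adjusted p = 0.99).

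The arrays of both dye orientations were also set against each other. The dye coefficient, the ratio for mutants in Cy5 minus that for mutants in Cy3, was larger in size than the genotype ratio for 7 of 9 members, a share near the 77.1% of all probes, and its standard error is the larger of the 2. None passed an adjusted p of 0.05 for this coefficient, against 0.269% of all probes (limma, adjusted p from 0.13 to 0.58), and 1 had an unadjusted p under 0.05, against 20% of all probes. That member was Junb, whose mean was -0.67 for mutants in Cy5 and 0.43 for mutants in Cy3, a coefficient of -1.10 (standard error 0.24, limma, unadjusted p = 0.00529, adjusted p = 0.13). Orientations did not overlap for 5 of the 9 tested members (Junb, Egr1, Egr2, Zfp36 and Atf3), against 29.7% of all probes, and Egr1 had only 2 values per orientation. The arrays with the mutant in Cy5 were the higher ones for 2 of these, Egr1 and Egr2, against 14.5% of all probes. Mean ratios were of opposite sign between the orientations for 3 members tested (Jun, Junb and Ier2), against 58.9% of all probes. Because each wild type was used once per dye, the fitted genotype ratio takes both orientations with equal weight for members measured on all arrays.

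**Figure D2:**
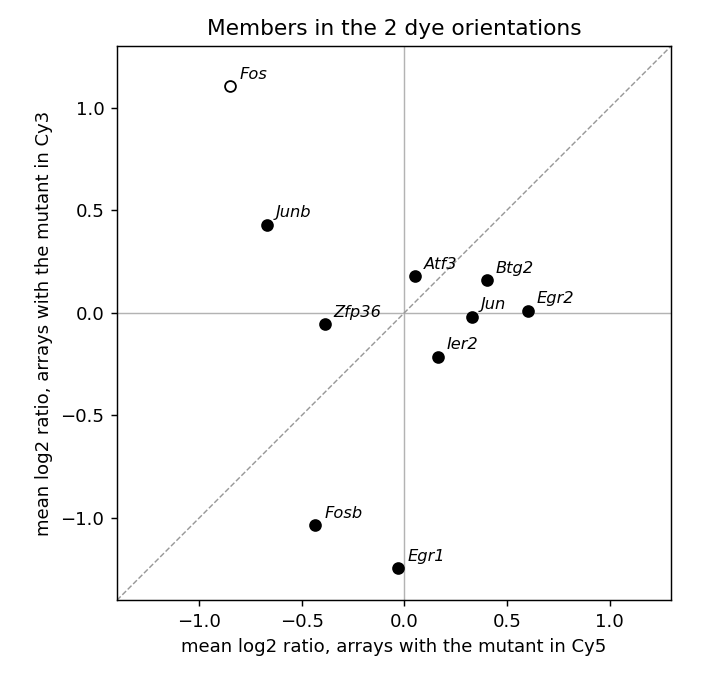
Mean log2 ratio of mutant over wild type for mutants labelled with Cy5 (x axis) and with Cy3 (y axis), for each member. Points on the dashed line would have equal means, and the open symbol marks Fos, with 1 value in Cy3. Junb, at -0.67 and 0.43, lies farthest from the line among the tested members apart from Egr1 at -0.029 and -1.24, and Fosb is below 0 in both orientations.

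Early genes are often variable between animals, so the spread over arrays was set beside that of all probes, with the mean of each dye orientation removed. Their median SD was 0.40, against 0.36 for all 17476 probes, and 1 of 9, Egr1, stood above the SD of 0.77 that marks the 75th percentile. Egr1 (SD 0.78, from 4 values) was followed by Fosb (0.64), Ier2 (0.51) and Jun (0.49). Zfp36 (0.21) stood at percentile 28.0 of all probes and Atf3 (0.059) at percentile 1.18. Fos, not tested, is left out here. The plain SD of its 4 values, with orientation means kept, was 1.24, the largest of the members by that measure.

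**Figure D3:**
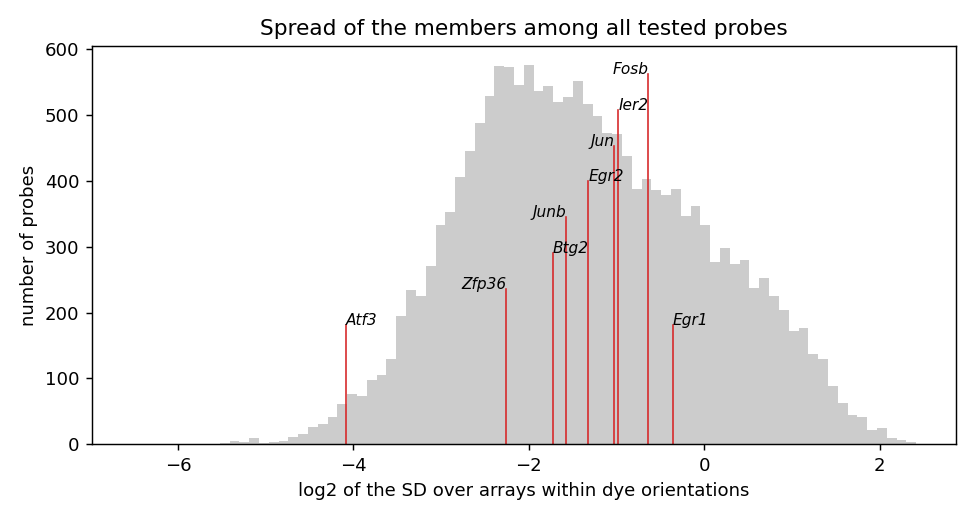
Number of probes (y axis) by the log2 of their SD over arrays within dye orientations (x axis), with the 9 tested members as red lines whose height has no meaning. Atf3 (SD 0.059) lies at the stable end of the distribution and Egr1 (SD 0.78) at percentile 75.2.

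A high or low level in a wild-type embryo would move both arrays that used it the same way. A difference of the same sign in every mutant would do so too, and which of them applied was not tested. Members had the same sign on both arrays of a wild type in 16 of 25 cases, or 64.0%, against 49.2% over all probes. For wild type 2 (mutants 3 and 1, with the array of mutant 3 read as wild type 2) this held for 3 of 8 members, Egr1, Egr2 and Atf3, against 50.1% of all probes. For wild type 8 (mutants 5 and 4) it held for 7 of 8, all except Jun, against 54.1%. For wild type 9 (mutants 6 and 7) it held for 6 of 9, against 43.7%. These shares are descriptions, since the members of an array share 1 hybridisation.

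Across arrays the members did not follow one another as a block. Over the 7 with values on all 6 arrays, 9 of the 21 pairs had a positive Pearson correlation and 12 a negative one, with a median of -0.051. The pair with the highest r was Ier2 and Egr2 (0.88), both highest in mutant 5, and the lowest was Btg2 and Junb (-0.76). Outside the lists used here, the genes whose ratios were most like the mean of the members were Nf1, Klra9, Uaca and Mycn, with r of 0.99, 0.99, 0.98 and 0.98 over 6 arrays. That mean was taken over whichever members had a value on each array, and against the mean of the 7 complete members the r of these genes was 0.40, 0.35, 0.47 and 0.39. Of 10809 probes compared, 68 had an r above 0.9, and the arrays share wild types and dye orientations, so the likeness is a description.

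Other genes of the same early wave were taken from a list of 47 symbols. Of these, 41 were on the array and 39 could be tested, with 1 value per gene. None passed an adjusted p of 0.05 (limma), where 0 of 12588 genes did, and none had an unadjusted p under 0.05, against 3.96% of all genes. Their fitted ratios ran from -0.17 for Maff, a small Maf protein, to 0.22 for Ier5, with 23 above and 16 below 0 and a median of 0.037. Ier5, a relative of Ier2, had 0.49, 0.55 and 0.42 in mutants 3, 5 and 6, against 0.066, 0.16 and -0.37 in mutants 1, 4 and 7, and the orientations did not overlap. Fosl2, another Fos family member, had 0.35, 0.14 and 0.092 in mutants 3, 5 and 6 and 0.092, 0.071 and 0.18 in mutants 1, 4 and 7, above 0 on all 6 arrays (fitted 0.15, standard error 0.079, limma adjusted p = 0.90). Ptgs2, the inducible cyclooxygenase, and Crem, a cAMP response factor with early repressor forms, had fitted ratios of 0.19 and 0.15. The closest relatives of the Egr genes, Egr3 and Egr4, had 0.041 and 0.012, and the orphan receptor genes Nr4a1 and Nr4a2 had -0.12 and -0.0044. The ERK phosphatase gene Dusp1 lay at -0.038, the neuronal activity gene Arc at 0.14 and Myc at 0.049.

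The kinases and factors that switch on early transcription gave no adjusted call either, with 10 of 16 genes tested above 0 and a median of 0.094. Nras, a Ras GTPase, had 0.44, 0.42 and 0.19 in mutants 3, 5 and 6 and -0.057, 0.31 and 0.44 in mutants 1, 4 and 7. Its fitted ratio was 0.29 with a standard error of 0.11 (limma, unadjusted p = 0.0455, adjusted p = 0.90), and it was the 1 gene of this list at that unadjusted threshold. Srf, the serum response factor that binds CArG boxes like those printed for Egr2 and Zfp36, had a fitted ratio of 0.16 with a standard error of 0.069 (limma, adjusted p = 0.90). Its partner Elk4 had 0.14 and the ERK-activated kinase gene Rps6ka3 0.17. Elk4 averaged -0.18 for mutants in Cy5 and 0.45 for mutants in Cy3, without overlap.

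Among partners and antagonists of AP-1 and Egr proteins, 9 of 12 lay above 0 with a median of 0.065. Atf2, Batf and Atf4 had 0.17, 0.090 and -0.12, and Maf had -1.28 with a standard error of 1.25, set by a value of -6.40 in mutant 5. Of 9 relatives of Btg2 and Zfp36 in mRNA decay, 7 lay above 0 (median 0.046), with Btg1 at 0.25 and Btg4 at 0.087. Tob2 had -0.46 (standard error 0.45), set by -2.585 in mutant 4. Elavl1, which stabilises AU-rich mRNAs, had -0.70 (standard error 0.58), set by -2.49 in mutant 5 and -1.95 in mutant 7. Feedback targets of Fgf and ERK signalling had 6 of 9 above 0 and a median of 0.12, with Spry4, Etv1, Spred2 and Spred1 at 0.36, 0.20, 0.12 and 0.50. Spry4 averaged 1.03 for mutants in Cy5 and -0.31 for mutants in Cy3, without overlap. Spred1 had 3.03 in mutant 7 and at most 0.37 on the other arrays. None of these 3 lists had a gene at an unadjusted p under 0.05 (limma), and none passed after adjustment.

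Heat shock genes and genes of other stress responses were measured in the same arrays. Of 7 tested, 5 lay above 0, with a median of 0.0058 and none at an unadjusted p under 0.05 (limma). Hspb1, which encodes a small heat shock protein, had 0.30, 1.65 and 0.20 in mutants 3, 5 and 6, against -1.60, -0.52 and -1.55 in mutants 1, 4 and 7, a sign that followed the dye. Hspa8, Hmox1 and Hsph1 lay at 0.097, 0.064 and 0.042.

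**Figure D4:**
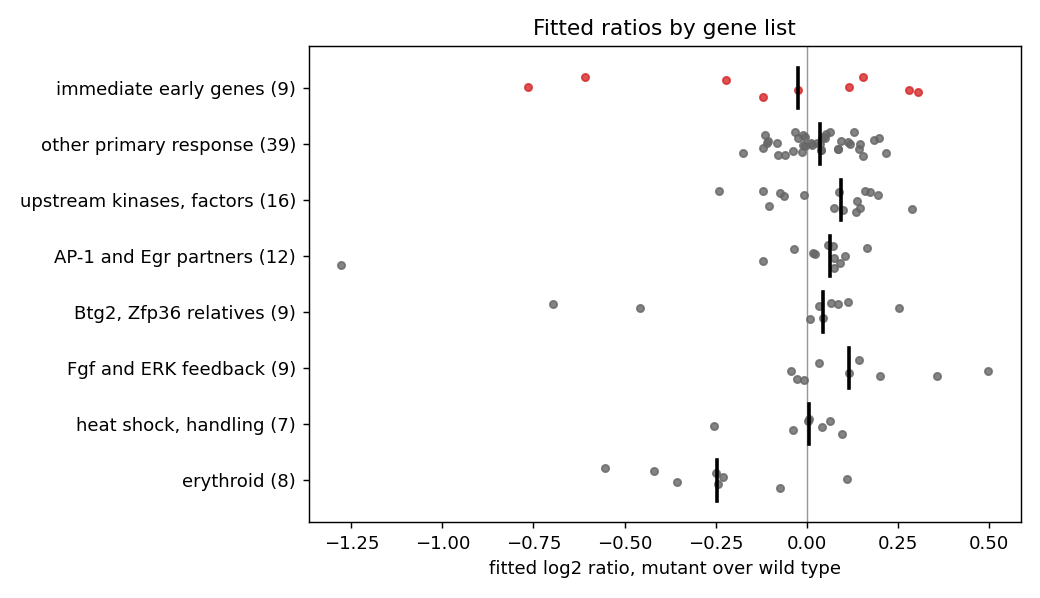
Fitted log2 ratio of mutant over wild type (x axis) for each gene of 8 lists (y axis, number of genes tested in brackets), with a bar at each list's median. The immediate early genes range from -0.77 to 0.31, and the erythroid list has its median at -0.25.

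Markers of other cells that a dissected cortex can hold were checked beside the members. Of 8 erythroid genes 7 lay below 0, with a median of -0.25 and array means from -0.58 to -0.047, and 3 had an unadjusted p under 0.05 but none passed (limma). Hbb-bh1, Hbb-y, Alas2 and Hba-x had -0.36, -0.42, -0.24 and -0.23. The lowest array mean, in mutant 3, was carried by Gata1 at -3.11. Without Gata1 the array means ran from -0.41 in mutant 1 to -0.061 in mutant 6, and those of the 4 globin genes from -0.54 in mutant 5 to -0.16 in mutant 6. The order of the arrays thus depends on which blood genes are averaged. The part of blood content in the member values was not tested. Medians were 0.026 for 9 endothelial genes, 5 above and 4 below 0, where Tie1 had 0.085, Plvap -0.35, Kdr -0.21 and Esam -0.43. Those of 8 macrophage and 8 meningeal genes were -0.018 and 0.0054, with 4 genes above and 4 below 0 in each list. Of the macrophage genes Tyrobp, Aif1, Fcgr3 and C1qc had -0.089, -0.087, -0.12 and 0.071, and of the meningeal genes Mgp, Postn, Col3a1 and Col1a2 had -0.24, -0.54, 0.060 and 0.056. Cortical progenitor and neuron genes had a median of -0.0026 over 11 genes, with Tbr1, Emx2, Pax6 and Neurog2 at -0.13, -0.10, 0.049 and 0.055. Among these lists of cell markers, Mgp was the 1 gene outside the erythroid list at an unadjusted p under 0.05 (limma, unadjusted p = 0.0476, adjusted p = 0.90).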

How the data were processed

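The authors' deposited values were read as log2 ratios of Cy5 over Cy3, from values on both sides of 0, a ceiling of 16.61 that equals log2 of 1e+05, and Mest, whose deposited sign followed the dye labels. Scale and direction are not stated, while for the scanner, background treatment, spot filter and normalization the sources used here name nothing. Trizol served for RNA extraction, per the labels. Deposited medians ran from -0.585 to 0.764, so the ratios had not been centred.

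Ceiling values (588) were set to missing, and 232 Gapdh control spots were left out of tests. Ratios were turned to mutant over wild type and centred on each array's median. The limma 3.58.1 package (R 4.3.3; lmFit and eBayes) was applied to probes holding 4 or more values and 2 or more for each orientation, with a genotype intercept, a dye term, and the wild type as a random block (consensus correlation 0.246), with Benjamini-Hochberg adjustment over all 17476 probes and a threshold of 0.05. Fits on fewer arrays kept that correlation. The mutants are separate embryos, and 6 arrays limit the precision. Symbols came from the platform's annotation, 1 symbol for 16632 probes, and 16184 of 17003 annotated probes matched the GRCm38.p6 gene table. Gene lists used the mean of a gene's probes.

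Named are all 10 members, Mest, the 4 genes with the smallest p of each of 11 other lists, and the 4 genes most like the member mean. Egr3, Egr4, Nr4a1, Nr4a2, Dusp1, Arc, Myc and Maff were added after their values were seen. The members and lists were chosen with earlier results of these data known. The fit was tested on simulated data. Alternatives covered the block, dye term, centring, scaling, missing and ceiling values, moderation, probes per gene, and arrays, wild types or dye orientations left out.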

Additional observations from a re-analysis of the deposited data

Results flagged for a closer look

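For 3 of the 10 members a single array stood apart from the others by more than Dixon's 95% limit, and the mean of the members had no such array. Chance passes that limit in about 5% of sets of normally distributed values, while 9.03% of all probes tested passed it here, and no test of the members' share was made. Jun had 1.09 in mutant 3, where the next highest value was 0.17. Egr2 had 1.25 in mutant 5, where the next highest was 0.33. Zfp36 had -0.70 in mutant 6, where the next lowest was -0.24. The 3 arrays are different ones, all with the mutant in Cy5, and each wild type is represented once.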

How the results depend on the processing

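No member passed the adjusted threshold for genotype under any of the 22 alternatives (195 fits of a member, lowest limma adjusted p 0.295), nor for the dye coefficient where one could be fitted, and 183 of the 195 kept their direction. Part of that total was fixed in advance. Settings such as those without the block or the dye term cannot move the ratio of a member with all 6 values. Leaving out an array where a member had no value leaves its ratio unchanged. The count at an unadjusted p under 0.05, 1 in the main analysis, was 0 without centring, with scaling, with quantile normalization, with probes measured on all 6 arrays (Fosb and Egr1 then drop out), and without wild type 2 or wild type 8. It was 2 with the mutant in Cy3 only and without wild type 9 (Fosb and Egr1 in both), and 3 with Gapdh centring (Atf3, Egr2 and Btg2). With single arrays left out it was 0 to 1, the member being Egr1 without mutant 6 and Fosb otherwise. With the mutant in Cy5 only it was 1, Junb and not Fosb. Calls over all probes moved too, from 687 of 17476 in the main analysis. They were about 1910 of 17500 in Cy3 only, about 1430 of 17500 in Cy5 only, 951 of 16900 without wild type 9 and 2761 with Gapdh centring. In the settings with 0 members they were, in the order given, 223, 793, 786, 604 of 13500, 500 of 16700 and 578 of 17100. With single arrays left out they ran from 539 to about 1410. The mean of the members was 0.164 without centring, 0.172 with Gapdh centring, and -0.133 to -0.0578 with single arrays left out. The median fitted ratio of the tested members was 0.228 without centring and 0.236 with Gapdh centring, against 0.26 and 0.265 over all probes. Over all probes the unadjusted calls were 280 higher and 407 lower, against 179 and 44 without centring and 2671 and 90 with Gapdh centring. Ratios changed sign for Junb (0.132 without centring, 0.140 with Gapdh centring, 0.429 in Cy3 only), Zfp36 (0.0303 and 0.0387 with those 2 centrings), Ier2 (0.228 and 0.236 with them, 0.163 in Cy5 only, 0.195 without wild type 9, -0.189 to 0.117 with single arrays left out) and Jun (-0.0190 in Cy3 only, -0.0474 to 0.275 with single arrays left out). Beyond what these settings change by construction, the cause was not tested. Each array is already a pair, so the fit to its ratios was a paired one. The wild types shared by arrays entered as a block, without which Fosb was at -0.734. The number of arrays and the missing signal levels limit what could be seen. The mean over the 7 complete members was added after the data were seen.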
